A study of Mus musculus with 16 samples.

Results

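The genes described here are 35 interferon response genes, chosen by name: every probe whose annotated symbol was on that list was taken. Of the 35 genes, 34 had a probe on the array (Ifi44 had none), with 54 probes between them out of 25697. A probe was tested where 4 or more of the 8 arrays had a detection p under 0.01, which left 30 probes of 23 genes, against 11024 probes of 7665 genes on the whole array. For 8 genes (Ifih1, Iigp1, Ifit1, Oas1a, Mx1, Isg20, Rtp4 and Xaf1) no probe was detected in any tumour, and for 3 more (Irf7, Oasl1 and Mx2) a probe was detected in too few tumours to be tested.

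The study measured gene expression in murine B cell lymphomas of strain C57B6 on Illumina bead arrays. The Wrn group held 4 tumours of genotype Eµ-Myc Wrn Dhel/Dhel, and the Eµ-Myc group held 4 tumours of genotype Eµ-Myc. Both groups therefore carry the Eµ-Myc transgene, which drives Myc from the immunoglobulin heavy chain enhancer in cells of the B lineage, and they differ in the Wrn allele; Wrn encodes a helicase of the RecQ family. Each title also holds a letter, either E or L, and no source used here says what it stands for. Wrn tumours 1 and 3 and Eµ-Myc tumours 2 and 4 were L, while Wrn tumours 2 and 4 and Eµ-Myc tumours 1 and 3 were E. The labels do not say whether the tumours came from separate animals, so each p-value reflects only how far these samples spread, which may be technical.

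Interferons are secreted proteins that warn cells of infection. Type I interferons signal through the receptor chains Ifnar1 and Ifnar2 to Jak1 and Tyk2, which activate a complex holding Stat2 and Irf9 that binds the interferon-stimulated response element (ISRE). Interferon gamma, made mainly by T and NK cells, signals through Ifngr1 and Ifngr2 to the gamma-activated site (GAS) and induces Irf1 and many large GTPases. The induced genes block viral entry, translation and replication, and some, such as Usp18, damp the signal.

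The promoters of 5 members whose signals the results turn on are shown because they carry these elements. Each is the 250 bases before the transcription start, on the gene's own strand, from RefSeq on GRCm38.p6. Capitals mark each ISRE core, searched on both strands as 2 runs of GAAA with any 2 bases between them (TTTC runs on the other strand), and each GAS, searched as TTCNNNGAA, which reads the same on both strands. The 5 windows are Isg15 at chr4:156200819-156201068 (minus strand), Ifit3 at chr19:34583279-34583528 (plus strand), Igtp at chr11:58199306-58199555 (plus strand), Irgm2 at chr11:58214727-58214976 (plus strand) and Irf1 at chr11:53769764-53770013 (plus strand).
Isg15: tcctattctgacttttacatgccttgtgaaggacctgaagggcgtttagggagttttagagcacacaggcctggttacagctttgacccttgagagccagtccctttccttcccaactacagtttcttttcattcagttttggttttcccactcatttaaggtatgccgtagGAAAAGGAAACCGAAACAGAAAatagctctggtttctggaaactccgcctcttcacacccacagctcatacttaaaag
Ifit3: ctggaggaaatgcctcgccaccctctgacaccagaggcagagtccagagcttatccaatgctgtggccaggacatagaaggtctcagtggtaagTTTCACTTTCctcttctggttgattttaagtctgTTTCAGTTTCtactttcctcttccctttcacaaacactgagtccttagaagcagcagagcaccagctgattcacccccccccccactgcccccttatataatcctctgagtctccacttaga
Igtp: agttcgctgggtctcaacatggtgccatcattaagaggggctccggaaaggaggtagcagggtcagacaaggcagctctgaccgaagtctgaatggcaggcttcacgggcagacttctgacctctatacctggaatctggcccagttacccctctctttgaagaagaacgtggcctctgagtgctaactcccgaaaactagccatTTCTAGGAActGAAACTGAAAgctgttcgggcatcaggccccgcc
Irgm2: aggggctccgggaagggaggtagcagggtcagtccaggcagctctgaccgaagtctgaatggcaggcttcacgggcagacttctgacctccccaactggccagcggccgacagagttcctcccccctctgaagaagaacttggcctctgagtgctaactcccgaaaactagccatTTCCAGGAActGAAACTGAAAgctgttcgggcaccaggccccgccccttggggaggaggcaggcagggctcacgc
Irf1: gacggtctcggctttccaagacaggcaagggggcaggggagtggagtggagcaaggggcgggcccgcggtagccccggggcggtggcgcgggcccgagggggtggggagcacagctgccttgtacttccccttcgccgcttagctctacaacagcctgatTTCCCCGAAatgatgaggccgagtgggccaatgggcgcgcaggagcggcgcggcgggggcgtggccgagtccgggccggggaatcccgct

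Isg15 had 3 overlapping ISRE cores and Ifit3 had 2 separate ones, with no GAS in either window. Irf1 had a GAS and no ISRE core. Igtp and Irgm2, genes of the IRG family that both lie on chromosome 11, each had both elements, with 11 bases from the start of the GAS to the start of the ISRE core, and 39 of 40 aligned bases around them were identical. Windows of 300 bases (250 before the start and 50 after it) were given for 27 members, 33 windows in all. An ISRE core stood in 15 of those 33 windows (45.5%), against 3.44% of all 32851 windows, and a GAS in 9 (27.3%), against 8.3%. Both elements stood in the windows of 5 members: Oas1a, Bst2, Igtp, Irgm2 and Eif2ak2. Over all windows the share with both was 0.454%. A match is a run of letters, and whether a factor binds there was not measured.

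The 8 arrays were alike in overall signal: the median non-normalized intensity was 49.9 to 52.8 and 10607 to 11369 of the 25697 probes were detected on each. The pan-B cell markers Cd79a and Cd79b were detected in all 8 tumours, between 10.58 and 13.07 on the log2 scale used below. That scale is background-corrected, quantile-normalized log2 signal with an offset of 16, on which the dimmest detected probes of an array lay at 4.73 to 4.91 and which understates the changes of dim probes. Each gene is given by its brightest tested probe, and in tumour tissue a lower signal from fewer cells of a type cannot be told apart from less RNA per cell.

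The response genes stood out in Eµ-Myc tumour 2. It had the highest signal of the 8 tumours for 19 of the 23 tested genes, whereas it was the highest for 12.6% of all tested genes. It exceeded every other tumour by over 0.5 log2 for 14 of the 23 genes (2.73% of all tested genes) and by over 1 log2 for 8 (0.874%): Igtp, Irgm2, Gbp2, Ifit3, Rsad2, Isg15, Irf1 and Dhx58. The median deviation of the 23 genes from their mean over the 8 tumours was -0.32, -0.16, -0.04 and -0.10 across Wrn tumours 1 to 4, and -0.20, 1.17, 0.14 and -0.26 across Eµ-Myc tumours 1 to 4. For all tested genes the same median lay between -0.017 and 0.0090 in every tumour. The range over the tumours had a median of 1.78 log2 for the 23 genes and 0.948 for all tested genes. Of all 30 tested probes, 25 were highest in Eµ-Myc tumour 2, and 40 of the 54 member probes were detected there, against 25 to 32 in each other tumour. Oas2, Oasl2 and Usp18, which are among the 19, passed the detection filter only with Eµ-Myc tumour 2 counted.

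**Figure D1:**
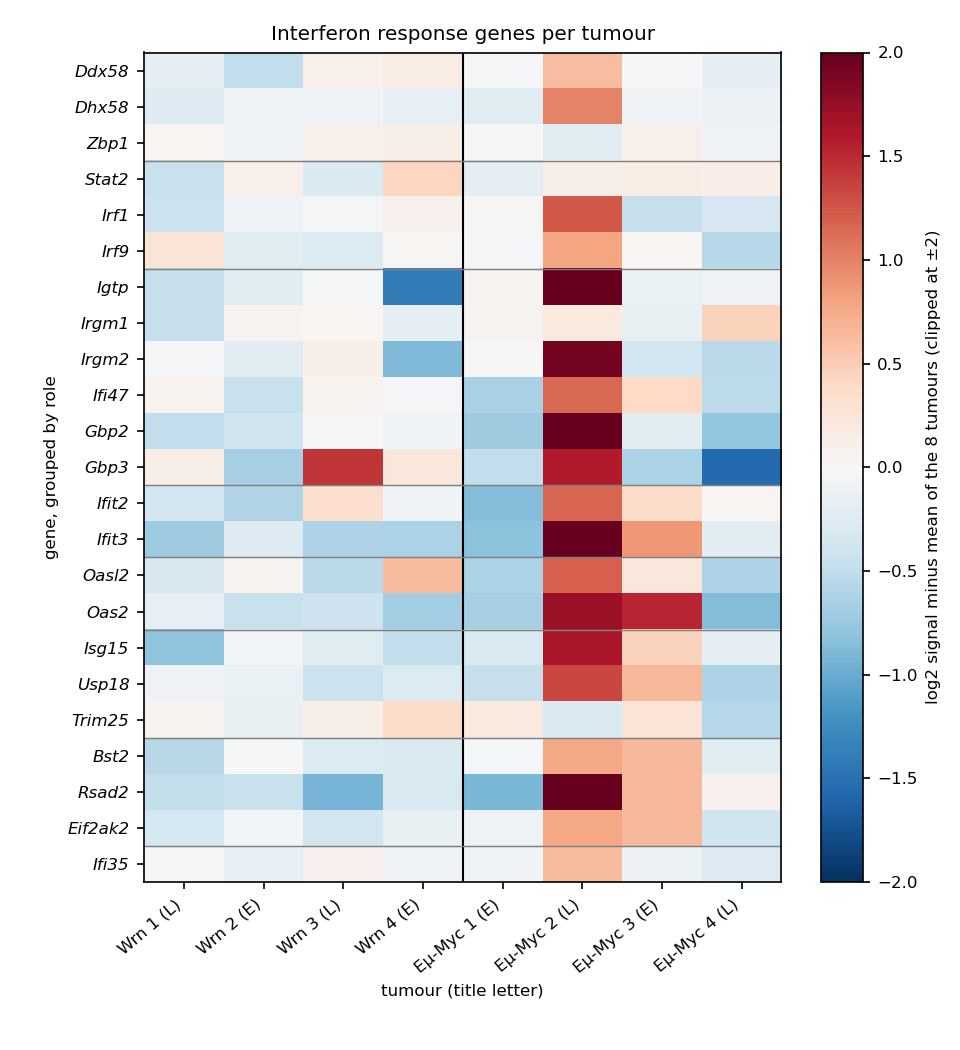
Deviation of the log2 signal of each of the 23 tested genes (rows, grouped by role) from its mean over the 8 tumours (columns, with the title letter), clipped at 2 log2 units either way. Wrn tumours are left of the line and Eµ-Myc tumours right of it. The column of Eµ-Myc tumour 2 is high for most genes, and that of Eµ-Myc tumour 3 is high for the IFIT, OAS and antiviral rows and not for most GTPase rows.

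Among the sensors of foreign nucleic acid, Dhx58, the regulatory RIG-I-like receptor LGP2, had log2 signals of 6.28, 6.47, 6.45 and 6.38 across Wrn tumours 1 to 4, and 6.29, 7.52, 6.46 and 6.41 across Eµ-Myc tumours 1 to 4. The other tumours lay close together and Eµ-Myc tumour 2 stood above them by 1.06. Ddx58, the RIG-I receptor of viral RNA, ranged from 5.27 to 6.37 and was also highest in Eµ-Myc tumour 2. Zbp1, a sensor of Z-form nucleic acid, moved over only 0.34 log2 units and was lowest there.

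Of the transcription factors, Irf1 had signals of 9.50, 9.84, 9.91 and 10.03 across Wrn tumours 1 to 4, and 9.95, 11.17, 9.48 and 9.60 across Eµ-Myc tumours 1 to 4. All 4 tested Irf1 probes were highest in Eµ-Myc tumour 2, by 1.14 to 1.31 over the next tumour. Irf9, the DNA-binding part of the type I complex, lay between 6.73 and 7.26 in Wrn tumours, and between 6.44 and 7.79 in Eµ-Myc tumours. Stat2, its partner, behaved otherwise: it had 5.43, 5.98, 5.59 and 6.32 across Wrn tumours 1 to 4, and 5.68, 6.002, 6.03 and 6.02 across Eµ-Myc tumours 1 to 4. It was highest in Wrn tumour 4, and the genotypes overlapped fully. Irf7, the factor that amplifies type I interferon production, was detected in Eµ-Myc tumour 2 alone, at 5.45, and lay between 4.26 and 4.77 in the other tumours.

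The interferon-inducible GTPases of the IRG and GBP families, which attack the vacuoles of intracellular pathogens, held 4 of the 6 widest ranges over the tumours (Igtp, Gbp2, Gbp3 and Irgm2). Igtp (Irgm3) had log2 signals of 6.82, 7.08, 7.25 and 5.89 across Wrn tumours 1 to 4, and 7.34, 9.58, 7.15 and 7.19 across Eµ-Myc tumours 1 to 4. In the authors' lumi intensities it stood at 97.4, 119, 136.3 and 43.4 across Wrn tumours 1 to 4, against 146.5, 748.4, 126.5 and 130 across Eµ-Myc tumours 1 to 4. The lowest level was in Wrn tumour 4, and Eµ-Myc tumour 2 exceeded the mean of the other 7 tumours by 2.62 log2, or 6.13-fold. Irgm2, whose promoter resembles that of Igtp, had the same order at the extremes: 7.24, 7.05, 7.38 and 6.38 across Wrn tumours 1 to 4, and 7.28, 9.18, 6.87 and 6.71 across Eµ-Myc tumours 1 to 4. Gbp2 had 7.03, 7.13, 7.52 and 7.46 across Wrn tumours 1 to 4, and 6.81, 10.18, 7.30 and 6.74 across Eµ-Myc tumours 1 to 4. Its Eµ-Myc tumour 2 signal was the farthest above the other tumours of any member, by 2.65 over the next. Ifi47 had 6.74, 6.23, 6.72 and 6.63 across Wrn tumours 1 to 4, and 6.03, 7.81, 7.07 and 6.14 across Eµ-Myc tumours 1 to 4.

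Gbp3 and Irgm1 departed from that pattern. Gbp3 had 7.58, 6.80, 8.89 and 7.69 across Wrn tumours 1 to 4, and 6.97, 9.05, 6.83 and 5.92 across Eµ-Myc tumours 1 to 4. It was thus high in a tumour of each genotype, both of letter L, and low in Eµ-Myc tumour 4. Its other tested probe gave 8.88 in Wrn tumour 3 and 8.67 in Eµ-Myc tumour 2, with the order of these tumours exchanged. The brightest probe of Irgm1, which controls the other IRG proteins, had 10.03, 10.56, 10.53 and 10.29 across Wrn tumours 1 to 4, and 10.56, 10.68, 10.34 and 10.96 across Eµ-Myc tumours 1 to 4. It was highest in Eµ-Myc tumour 4. Its other tested probe was highest in Eµ-Myc tumour 2, at 7.87 against 6.48 to 7.11 in Wrn tumours, so the Irgm1 probes disagreed on the leading tumour.

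**Figure D2:**
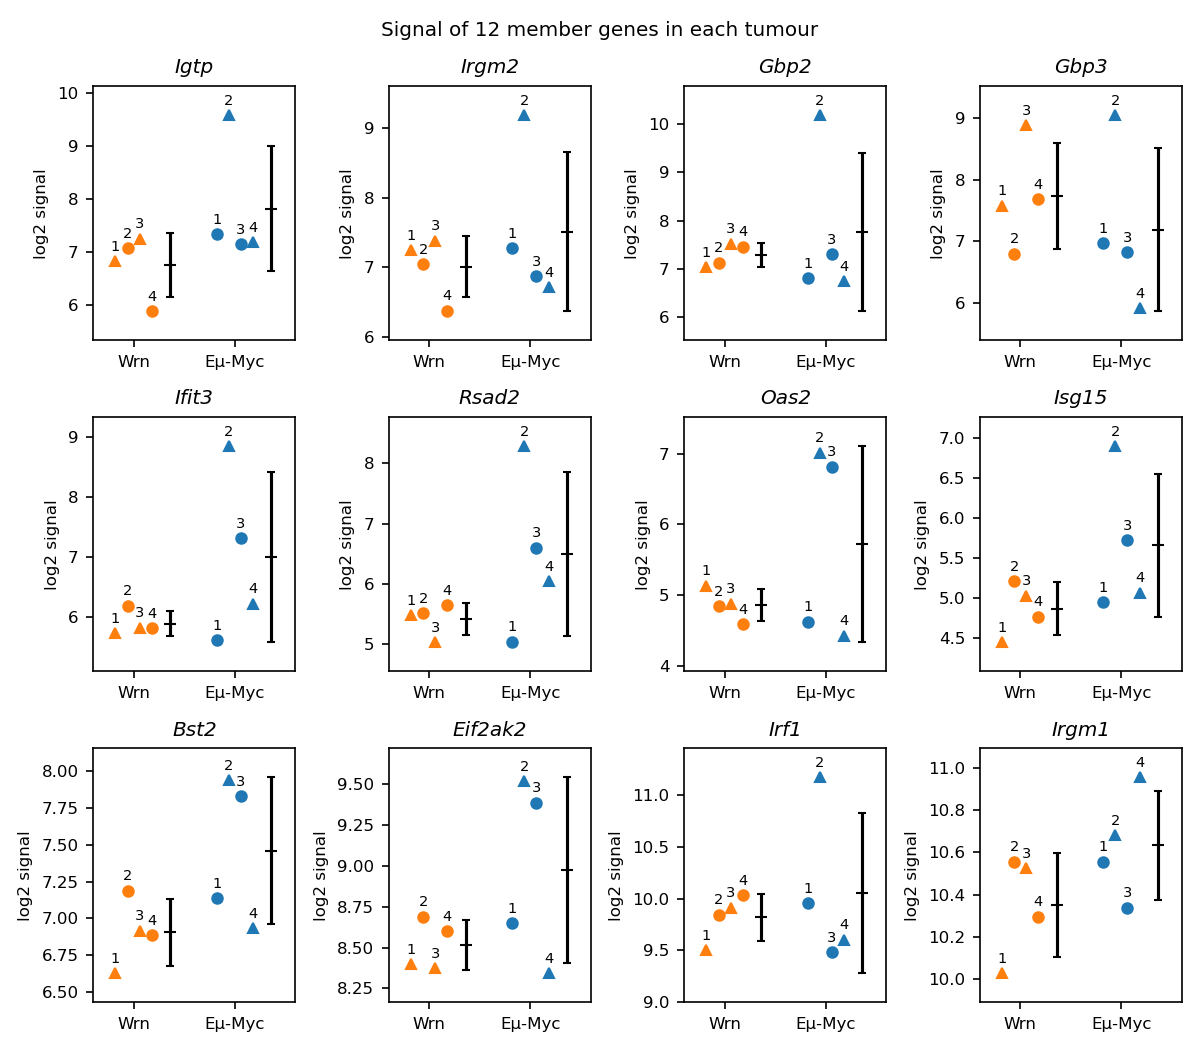
Log2 signal of 12 member genes in each tumour, with Wrn left of Eµ-Myc. Circles are letter E, triangles letter L, numbers are the replicate numbers, and the black bar is the mean ± SD of the 4 tumours. Eµ-Myc tumour 2 lies apart for Igtp (9.58), Irgm2 (9.18) and Gbp2 (10.18), is joined by Wrn tumour 3 for Gbp3 and by Eµ-Myc tumour 3 for Oas2, Bst2 and Eif2ak2, and is not the highest for Irgm1.

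The IFIT proteins bind viral RNA and block its translation. Ifit3 had 5.73, 6.19, 5.82 and 5.81 across Wrn tumours 1 to 4, and 5.61, 8.84, 7.31 and 6.22 across Eµ-Myc tumours 1 to 4. Ifit2 had 5.91, 5.70, 6.64 and 6.22 across Wrn tumours 1 to 4, and 5.43, 7.47, 6.67 and 6.34 across Eµ-Myc tumours 1 to 4. For both genes Eµ-Myc tumour 2 was highest, Eµ-Myc tumour 3 came next and Eµ-Myc tumour 1 was the lowest of all 8. The other tested probe of Ifit2 was also highest in Eµ-Myc tumour 2, at 5.83. Next came Wrn tumour 3, at 5.39, and Eµ-Myc tumour 3 had 5.06, so the Ifit2 probes disagreed on the second tumour. Eµ-Myc tumour 2 exceeded the mean of the other 7 tumours by 2.74 log2 for Ifit3 and by 1.34 for Ifit2.

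The OAS enzymes make the oligoadenylates that switch on RNase L. Oas2 had 5.13, 4.84, 4.87 and 4.59 across Wrn tumours 1 to 4, and 4.62, 7.01, 6.82 and 4.42 across Eµ-Myc tumours 1 to 4. It was detected on 4 arrays, and Eµ-Myc tumours 2 and 3 were near each other and apart from the remaining 6. The OAS-like gene Oasl2, also detected on 4 arrays, had 4.75, 5.12, 4.54 and 5.71 across Wrn tumours 1 to 4, and 4.44, 6.27, 5.31 and 4.46 across Eµ-Myc tumours 1 to 4. Here Wrn tumour 4 came next after Eµ-Myc tumour 2.

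Isg15 is a ubiquitin-like protein joined to other proteins during the response, Usp18 removes it and Trim25 is a ubiquitin ligase that activates RIG-I. Isg15 had 4.45, 5.22, 5.03 and 4.77 across Wrn tumours 1 to 4, and 4.95, 6.90, 5.73 and 5.07 across Eµ-Myc tumours 1 to 4. Usp18 had 4.90, 4.84, 4.54 and 4.70 across Wrn tumours 1 to 4, and 4.52, 6.30, 5.63 and 4.36 across Eµ-Myc tumours 1 to 4. Both were highest in Eµ-Myc tumour 2 and next in Eµ-Myc tumour 3, while the other Eµ-Myc tumours lay inside or just below the Wrn range. Trim25 did not follow: it had 5.21, 4.99, 5.25 and 5.51 across Wrn tumours 1 to 4, and 5.32, 4.84, 5.39 and 4.56 across Eµ-Myc tumours 1 to 4.

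Of the other antiviral effectors, Rsad2 (viperin, which makes a chain-terminating nucleotide) had 5.47, 5.51, 5.03 and 5.64 across Wrn tumours 1 to 4, and 5.03, 8.28, 6.60 and 6.04 across Eµ-Myc tumours 1 to 4. Bst2 (tetherin, which holds budding virions at the cell surface) had 6.63, 7.19, 6.91 and 6.89 across Wrn tumours 1 to 4, and 7.14, 7.94, 7.83 and 6.93 across Eµ-Myc tumours 1 to 4. Eif2ak2 (PKR, the kinase that halts translation on double-stranded RNA) had 8.40, 8.69, 8.37 and 8.60 across Wrn tumours 1 to 4, and 8.65, 9.52, 9.39 and 8.34 across Eµ-Myc tumours 1 to 4. All 3 were highest in Eµ-Myc tumours 2 and 3, nearly equally so for Bst2 and Eif2ak2. The other Eµ-Myc tumours lay inside or just below the Wrn range, except that Eµ-Myc tumour 4 lay above it for Rsad2. Ifi35, an interferon-induced leucine zipper protein, lay between 7.55 and 7.80 in Wrn tumours, and between 7.45 and 8.35 in Eµ-Myc tumours.

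Eµ-Myc tumour 3 shared the elevation for some roles and not for others. Eµ-Myc tumours 2 and 3 were the highest pair for 9 of the 23 genes (Ifit2, Ifit3, Oas2, Isg15, Usp18, Bst2, Rsad2, Eif2ak2 and Ifi47), against 4.38% of all tested genes. For Ifit2 this held for its brightest probe and not for its other tested probe. Eµ-Myc tumour 2 alone was highest for 19 of the 23 genes, which raises the share of such pairs. The share among all genes highest in Eµ-Myc tumour 2 was not counted. The median deviation in Eµ-Myc tumour 2 was 1.75 for the GTPases, 1.78 for the IFIT genes, 1.46 for the OAS genes and 1.33 for Isg15, Usp18 and Trim25. In Eµ-Myc tumour 3 it was -0.19 for the GTPases, 0.62 for the IFIT genes, 0.88 for the OAS genes and 0.46 for Isg15, Usp18 and Trim25. The other antiviral effectors had 0.77 in Eµ-Myc tumour 2 and 0.65 in Eµ-Myc tumour 3. Oas2, Oasl2 and Usp18 were detected on 4 arrays only, Eµ-Myc tumours 2 and 3 among them, so they passed the filter partly through these tumours. The OAS medians rest on Oas2 and Oasl2 alone. The medians by role are descriptions of a tumour each, with no test of the difference between roles.

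**Figure D3:**
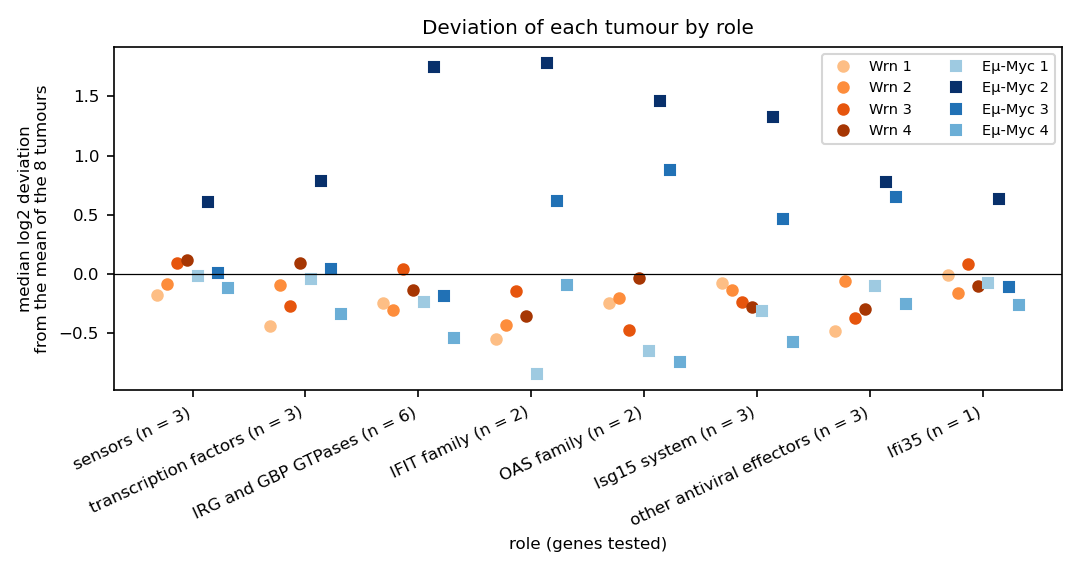
Median deviation of the log2 signal from the mean of the 8 tumours for each role, with Wrn tumours as circles in orange and Eµ-Myc tumours as squares in blue. Eµ-Myc tumour 2 is the highest for every role drawn. Eµ-Myc tumour 3 comes next for the IFIT, OAS, Isg15 and other antiviral groups, at 0.46 to 0.88, and is at -0.19 for the GTPases.

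The probes left untested for low signal were described in the same way. Of 24 such probes, 14 were detected in no tumour. The other 10, of 7 genes, were all detected in Eµ-Myc tumour 2 and had their highest signal there. Only 1 of the 10, a further probe of Usp18, was detected in a Wrn tumour. It had 4.63, 5.13, 4.45 and 4.71 across Wrn tumours 1 to 4, and 4.34, 6.88, 6.09 and 4.23 across Eµ-Myc tumours 1 to 4. Mx2, a GTPase that restricts viruses, was detected only in Eµ-Myc tumours 2 and 3, at 5.16 and 4.91, and a probe of Oasl1 only in Eµ-Myc tumour 2, at 5.33. Apart from the Mx2 probe and that Usp18 probe, the 10 were detected in Eµ-Myc tumour 2 alone. Being highest there thus nearly followed from being detected, and the share over all untested probes was not counted.

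The genotype comparison asked whether tumours with the Wrn allele differ from those with Eµ-Myc alone. None of the 23 genes differed at a limma adjusted p under 0.05 (0.0363% of all tested probes did), and none at an unadjusted p under 0.05 (3.76% of all tested probes). No gene had groups that did not overlap, against 0.916% of all tested probes with all Wrn tumours lower and 1.3% with all Wrn tumours higher. The difference, Wrn minus Eµ-Myc, was below 0 for 20 of the 23 genes (48.9% of all tested genes) and above 0 for Zbp1, Gbp3 and Trim25, with a median of -0.28 against 0.0069 for all tested genes. Adjusted p-values from limma ran from 0.973 to 0.987.

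The members with the lowest unadjusted p gave the size of these differences. Bst2 averaged 6.90 ± 0.23 in Wrn tumours and 7.46 ± 0.50 in Eµ-Myc tumours (SD, n = 4 each), a difference of -0.56 ± 0.25 (SE; limma adjusted p = 0.973). Isg15 averaged 4.87 ± 0.33 in Wrn tumours and 5.66 ± 0.89 in Eµ-Myc tumours, a difference of -0.80 ± 0.39. Ifit3, Rsad2 and Igtp differed by -1.11 ± 0.55, -1.08 ± 0.54 and -1.06 ± 0.52. Their SDs were wider in Eµ-Myc tumours, as for Ifit3, with 0.21 in Wrn tumours and 1.42 in Eµ-Myc tumours. Eif2ak2, Oas2, Irgm1, Usp18 and Dhx58 differed by -0.46, -0.86, -0.28, -0.46 and -0.28. All 10 shared the limma adjusted p of 0.973.

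How far Eµ-Myc tumour 2 carried these differences was seen by leaving it out. Oas2, Oasl2 and Usp18 then fell below the detection filter, and of the 20 genes still tested 10 had a difference below 0 and 10 above, with a median of -0.014; the same 20 genes had a median of -0.28 over all 8 tumours. The differences of Ifit3, Rsad2, Igtp, Bst2 and Isg15 were then -0.49, -0.48, -0.47, -0.40 and -0.38, while Gbp2 and Gbp3 were 0.33 and 1.16. Leaving out Eµ-Myc tumour 3 as well gave a median of 0.031, with 7 of 20 genes below 0. Leaving out each other tumour alone gave medians from -0.43, where Eµ-Myc tumour 1 was left out, to -0.24, where Wrn tumour 1 was.

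**Figure D4:**
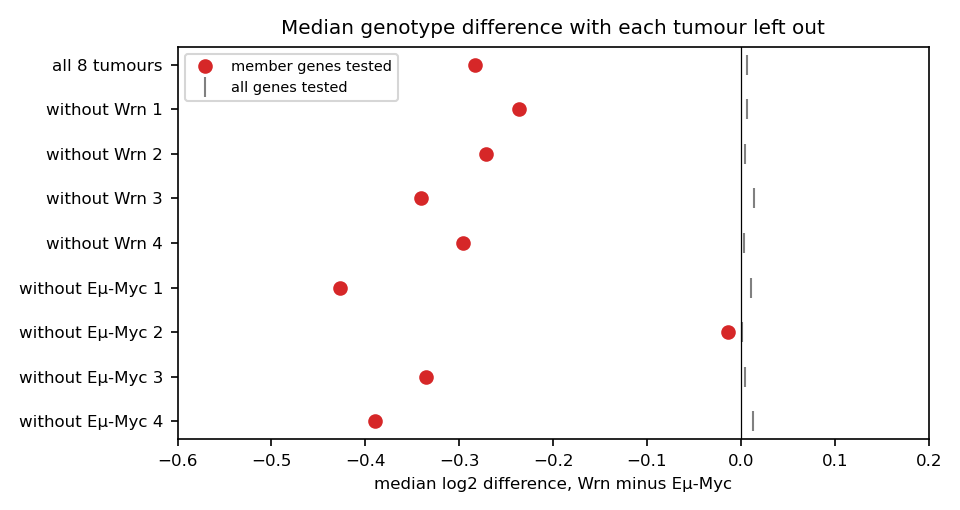
Median difference, Wrn minus Eµ-Myc, over the member genes tested (red points) and over all genes tested (grey bars), on the log2 scale, with all 8 tumours and with each left out. The median is -0.28 with all tumours, between -0.43 and -0.24 without 7 of them in turn, and -0.014 without Eµ-Myc tumour 2.

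The second comparison set L tumours against E tumours (L minus E), with genotype as a term of the fit. No member passed an adjusted p under 0.05 in limma (0.0181% of all tested probes did) or an unadjusted p under 0.05 (7.44%). The difference was above 0 for 17 of the 23 genes (49.3% of all tested genes), with a median of 0.20 against -0.0042 for all tested genes, and limma adjusted p-values ran from 0.747 to 0.966. The lowest unadjusted p-values belonged to Igtp, Ifit2, Irgm2, Trim25, Gbp3 and Stat2. Igtp, Irgm2, Gbp3 and Ifit2 had differences of 0.84 ± 0.47, 0.74 ± 0.44, 0.78 ± 0.59 and 0.58 ± 0.35 (SE), while Trim25 and Stat2 had -0.34 ± 0.20 and -0.24 ± 0.21. Eµ-Myc tumour 2 is an L tumour, and without it the median was -0.062. Leaving out Wrn tumour 1 gave 0.37, Eµ-Myc tumour 1 gave 0.084 and Eµ-Myc tumour 4 gave 0.45.

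Whether the genotype difference itself differed between letters was tested as an interaction. None of the 23 genes passed an adjusted p under 0.05 in limma (0.0% of all tested probes did) or an unadjusted p under 0.05 (5.03%). The interaction was below 0 for 19 of the 23 genes (50.3% of all tested genes), with a median of -0.31 against -0.0038 over all tested genes. The lowest unadjusted p, 0.0565 (limma), was that of Stat2, at -0.79 ± 0.36 (SE; limma adjusted p = 0.937). Each letter and genotype held 2 tumours, and the median was 0.29 without Eµ-Myc tumour 2, -0.13 without Eµ-Myc tumour 1, -0.55 without Eµ-Myc tumour 3 and -1.10 without Eµ-Myc tumour 4. This contrast is also replicates 1 and 3 against 2 and 4.

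Upstream of the response, interferon transcripts themselves were mostly below detection. Of 19 interferon genes with a probe, 14 were detected in no tumour, Ifnb1 among them. Only Ifna6 was detected on at least 4 arrays, through 1 of its probes, at 5.42 to 5.98 in Wrn tumours and 5.51 to 5.73 in Eµ-Myc tumours. Ifng, the type II ligand, was detected in Eµ-Myc tumour 2 alone, at 4.95 by 1 of its 2 probes, against 4.30 to 4.41 in Wrn tumours and 4.20 to 4.55 in the other Eµ-Myc tumours. Ifna1 and Ifna15 were detected on 2 arrays each, and a probe of Ifnz on 1. Of 5 receptor genes tested, 0 were called between genotypes and 4 were above 0 (limma adjusted p from 0.973 to 0.987). Ifngr1 lay between 7.26 and 7.81 in Wrn tumours and between 6.85 and 7.73 in Eµ-Myc tumours, and Ifnar1 was not detected. Of 7 tested JAK-STAT genes 0 were called, 2 were above 0 and 5 below. Socs3, the feedback inhibitor of cytokine signalling, had 6.67, 6.66, 6.55 and 8.77 across Wrn tumours 1 to 4, and 7.03, 8.38, 7.40 and 6.87 across Eµ-Myc tumours 1 to 4, so it was high in Wrn tumour 4 and Eµ-Myc tumour 2. In the list of pathways that induce interferon, 18 genes were tested and 0 called, with 6 above 0 and 12 below. Of the 18, 3 were highest in Eµ-Myc tumour 2 (16.7%), near the 12.6% of all tested genes. For these lists alike, 0.0363% of all tested probes were called between genotypes and 48.9% of all tested genes were below 0.

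A further list held interferon-induced genes that are not members, and it too was made with earlier results of these data known. Of 42 tested, 0 were called between genotypes in limma and 3 had an unadjusted p under 0.05 (3.76% of all tested probes). The difference was above 0 for 9 and below for 33 (48.9% of all tested genes were below), with a median of -0.20. Of the 42, 27 were highest in Eµ-Myc tumour 2, against 12.6% of all tested genes. Cxcl9, Casp4, Ccl5 and Plscr1, given next, had the widest ranges of the list. Cxcl9, a chemokine induced by interferon gamma, had 5.03, 4.61, 4.91 and 4.67 across Wrn tumours 1 to 4, and 4.91, 9.47, 5.26 and 4.77 across Eµ-Myc tumours 1 to 4. Casp4 and Plscr1 were likewise highest in Eµ-Myc tumour 2, at 8.02 and 8.24. The chemokine Ccl5 reached 7.99 there, and 6.03 in Eµ-Myc tumour 3. The lowest unadjusted genotype p-values of the list belonged to Trafd1, Samd9l, Ifi30 and Plscr1. Unlike most of the list, Samd9l and Ifi30 had differences above 0, of 0.76 ± 0.30 and 0.58 ± 0.25 (SE; limma adjusted p = 0.973 for both). Without Eµ-Myc tumour 2 the median of the list was -0.042.

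Markers of other cells also varied among the tumours. Of the 11 T cell markers with a probe 6 were tested, Cd4 and Cd8a were detected nowhere, and Cd3d was 4.93 to 5.84 in Wrn tumours, and 7.80 in Eµ-Myc tumour 2 against 4.77 to 5.36 in the other Eµ-Myc tumours. Cd8b1 was 5.21 to 6.46 in Wrn tumours, and 8.60 in Eµ-Myc tumour 2 against 4.69 to 6.33 in the other Eµ-Myc tumours. The summed lumi intensity of the tested T cell markers was 700.8 to 1053.2 in Wrn tumours and 322.4 to 1506.4 in Eµ-Myc tumours, with the highest sum in Eµ-Myc tumour 2. Of the 6 tested T cell markers 3 were highest in Eµ-Myc tumour 2 (12.6% of all tested genes), while Cd2 and Thy1 were highest in Wrn tumour 4. Zap70, a kinase of T cell receptor signalling, had 8.27, 8.001, 7.53 and 6.48 across Wrn tumours 1 to 4, and 8.07, 7.66, 5.10 and 6.78 across Eµ-Myc tumours 1 to 4. Zap70 was thus bright in Wrn tumours where Cd3d was dim, and the summed intensity need not follow the number of T cells. None of the 6 was called between genotypes, and the list's median difference was -0.26, or 0.41 without Eµ-Myc tumour 2. Of 9 NK and cytotoxic cell markers 6 were detected nowhere, among them Gzma, Gzmb and Ncr1. Nkg7, a cytotoxic granule gene, was 4.71 to 5.10 in Wrn tumours, and 8.27 in Eµ-Myc tumour 2 against 4.44 to 5.16 in the other Eµ-Myc tumours. The tested NK and cytotoxic markers summed to 164.1 to 333.2 in Wrn tumours and 242.1 to 728 in Eµ-Myc tumours.

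The macrophage list had 14 tested genes, 1 above 0 and 13 below between genotypes (48.9% of all tested genes were below 0). Of the 14, 0 were called (0.0363% of all tested probes) and 4 had an unadjusted p under 0.05 in limma (3.76%). The median difference of the list was -0.51, or -0.29 without Eµ-Myc tumour 2, where 6 of the 14 were highest (12.6% of all tested genes). The list summed to 5771.6 to 10308.7 in Wrn tumours and 8326.9 to 12846.2 in Eµ-Myc tumours, with the highest sum in Eµ-Myc tumour 2. The 9 tested pan-B cell markers lay on the other side: all 9 were above 0, with a median of 0.34, or 0.28 without Eµ-Myc tumour 2. Of these 0 were called (0.0363% of all tested probes) and 2, Btk and Blk, had an unadjusted p under 0.05 in limma (3.76%). Pan-B sums were 11892.4 to 19689.3 in Wrn tumours and 9994.3 to 13548.6 in Eµ-Myc tumours. Granulocyte markers had a median deviation of 2.12 in Eµ-Myc tumour 3 and -0.58 in Eµ-Myc tumour 2, and sums of 83.2 to 564.1 in Wrn tumours and 84.4 to 2524.3 in Eµ-Myc tumours. Of the plasmacytoid dendritic cell markers, which name a cell that makes much type I interferon, Siglech, Ccr9 and Klk1 were detected nowhere and Cox6a2, Pacsin1 and Tcf4 were tested. Tcf4 was highest in Eµ-Myc tumour 2, at 10.55, Cox6a2 in Wrn tumour 3 and Pacsin1 in Wrn tumour 4. The 3 summed to 985.2 to 1514.9 in Wrn tumours and 935.8 to 1594.6 in Eµ-Myc tumours, with the highest sum in Eµ-Myc tumour 2. Tcf4 made up most of that highest sum, so the sum need not follow the number of such cells. The median deviation of the 3 was 0.13 in Eµ-Myc tumour 2 and 0.47 in Wrn tumour 4. The part of these cells in the signals of the response genes was not tested.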

How the data were processed

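The series holds 16 records of 8 tumours, each deposited after 2 processings (lumi and Illumina GUI), and was analysed with 1 value per tumour (n = 4 per genotype). Titles gave genotype and letter, and descriptions gave the replicate number. The deposited non-normalized table holds the bead intensity of each probe and a detection p-value for each array, per the file headers. The lumi values deposited by the authors are background-subtracted linear intensity, of which 26.3% to 26.4% fall below 0 on each array, and the GUI values deposited by them are a score. The design had taken GUI values to be linear or log2. Above a lumi intensity of 1000 their square root equalled log2 of it within 0.0102, so the square root was used, which is not shown to be log2 for dim probes. No source used here gives their software versions.

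The non-normalized rows were joined to the processed ones by their ranks over the 8 arrays: all 25697 joined one to one, alike through both processings, and 99.996% of joins were unchanged with 4 arrays. Symbols came from the platform annotation, updated to GRCm38.p6 gene names (23978 probes had 1 symbol, 0 several and 1719 none). Signals were corrected and quantile normalized with neqc of limma 3.58.1 (R 4.3.3), which infers negative controls from detection p, at an offset of 16. The fit used lmFit and eBayes on all 11024 tested probes, two-sided, with Benjamini-Hochberg adjustment over all of them, and was tested on simulated data. The simulated noise was independent between probes, so that test does not cover a tumour that is high for many genes at once. The number of arrays limits the precision. Python 3.11.15, pandas 2.3.3 and matplotlib 3.10.9 were used for counts and figures.

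The members and lists were chosen with earlier results of these data known. Values per tumour are given for the 12 members with the widest range, the 10 with the lowest genotype p and the 6 with the lowest letter p. Irf1 falls under none of these rules and was added after its values were seen. Receptor and JAK-STAT genes, detected ligands, and the 4 genes of other lists with the lowest p or widest range could be named. The remaining genes were named after their values were seen. Alternatives were other offsets, normalizations, filters, deposited values, array weights, a replicate block and leaving out tumours. Replicate numbers were checked for pairing and showed no sign of it, but same-numbered tumours carry opposite letters, so the check cannot exclude it.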

Additional observations from a re-analysis of the deposited data

Results flagged for a closer look

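Dixon's criterion set the highest and lowest of the 4 tumours of a genotype against the others. It was run for each genotype and each of 57 genes, 23 of them members, 114 groups in all. Chance flags about 1 in 20 where groups are independent and not picked for spread. The genes that are not members were picked in part for a wide range in these tumours, and genes sharing tumours are not independent. That rate is thus only a guide. The criterion marked 7 groups, a share near 1 in 20. Of these, 5 were for a high value in Eµ-Myc tumour 2. Among the members these were Gbp2, at 10.18 against 6.74 to 7.30 in the other Eµ-Myc tumours, Igtp, at 9.58 against 7.15 to 7.34, and Dhx58, at 7.52 against 6.29 to 6.46. Among the other genes they were Cxcl9, at 9.47 against 4.77 to 5.26, and the T cell marker Cd3g, at 7.03 against 4.45 to 4.88. Stat2 was marked for a low value in Eµ-Myc tumour 1, 5.68 against 6.002 to 6.03 in the others. Socs3 was marked for a high value in Wrn tumour 4, 8.77 against 6.55 to 6.67 in the other Wrn tumours.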

How the results depend on the processing

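No member was called for genotype, letter or interaction under any alternative run. The median genotype difference ran from -0.33 to -0.21 over 13 alternatives that kept all tumours, the median letter difference from 0.12 to 0.25 over 12, and the median interaction from -0.33 to -0.25 over 2. Leaving out 1 tumour at a time, they ran from -0.43 to -0.014, from -0.062 to 0.45 and from -1.10 to 0.29. Without Eµ-Myc tumour 2 the letter median (-0.062) and the interaction median (0.29) changed sign, and without Eµ-Myc tumour 4 the interaction median was -1.10. Without Eµ-Myc tumours 2 and 3, an alternative added after seeing the data, the genotype median was 0.031. Alternatives for single members were run for the 15 with the lowest genotype or letter p, and 307 of 310 kept their direction. The 3 others were Dhx58 without Eµ-Myc tumour 2 (0.0048, in a range from -0.41 over the single tumours left out) and, without Eµ-Myc tumours 2 and 3, Dhx58 (0.043) and Eif2ak2 (0.019); the cause was not tested. Over all 23 members, 20 were below 0 between genotypes, of which Oas2, Oasl2 and Usp18 were not tested without Eµ-Myc tumour 2. Of the rest, 7 turned above 0 without that tumour: Dhx58, Irf1 (0.14), Irf9 (0.13), Irgm2 (0.057), Ifi47 (0.17), Gbp2 (0.33) and Ifi35 (0.10). The median deviation in Eµ-Myc tumour 2 was 1.18 with cyclic loess, 1.21 with median scaling and 1.30 in the lumi intensities, with 19 of 23 genes highest there in each. Median scaling moved an array's median by up to 0.13 log2. Deviations of same-numbered tumours correlated at -0.0037, -0.18, -0.21 and -0.19, which shows no sign of pairing. Same-numbered tumours carry opposite letters, which could lower these correlations, so the check cannot exclude pairing. With the replicate block the genotype median was -0.28 and 0 members were called. Dim probes are the limit: 14 member probes were detected nowhere, and Oas2, Oasl2 and Usp18 on 4 arrays only.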
